A study of Mus musculus with 22 samples.

Results

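Heat shock proteins, DnaJ proteins and the subunits of the chaperonin CCT were followed at the RNA level in mouse embryos in which the histone variant H2A.Z had been knocked down. The genes were chosen by symbol: Hsp with a family letter or a number, Dnaja, Dnajb or Dnajc with a number, Cct2 to Cct8, and Tcp1, leaving out pseudogenes marked ps. By this rule 85 of the 55335 genes in the table are members. They are 13 Hsp70 genes, 3 Hsp90 genes, the Hsp110 gene Hsph1, 3 genes of the mitochondrial Hsp60 and Hsp10 pair, 7 small heat shock protein genes, 4 DnaJ A, 13 DnaJ B and 28 DnaJ C genes and 10 CCT genes. A further 3 members carry the letters Hsp without being heat shock proteins themselves, namely Hspbp1, Hspbap1 and Hspb11.

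Chaperones bind unfolded or newly made proteins and help them reach or regain their folded form. DnaJ proteins deliver clients to Hsp70 and start its ATP cycle, nucleotide exchange factors such as the Hsp110 proteins end it, and Hsp90 takes over many clients late in folding, while CCT is a closed ring chamber in the cytosol that folds actin and tubulin. In mouse embryos the inducible Hsp70 genes are among the genes transcribed early when the zygotic genome is switched on, and the endoplasmic reticulum and the mitochondrion each have their own Hsp70, Hsp90 or Hsp60 and DnaJ proteins.

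The libraries come from embryos of B6D2F1 females mated with B6D2F1 males. They cover 3 stages, 2-cell embryos at 43 to 44 h, morulae at 78 h and blastocysts at 94 h post hCG injection. For the H2A.Z KD, zygotes at 20 to 22 h post hCG received about 10 pL of a mix of 3 pairs of siRNAs at 20 µM, and whether control embryos were injected is not stated for these libraries. Each of the 22 libraries pools 15 embryos and was made by Smart-seq2, which copies polyadenylated RNA, with 16 to 18 cycles of amplification. There are 4 control libraries at each stage, and 3 KD libraries of 2-cell embryos, 3 of morulae and 4 of blastocysts, each with a number from its title. Embryos of the last stage were harvested as blastocysts, and whether KD embryos that had stopped earlier were left out is not stated. Values are FPKM, fragments scaled by transcript length and by the mapped fragments of the library, listed below in the order of replicates 1, 2, 4 and 5 (2-cell control), 1, 2 and 4 (2-cell KD), 1, 2, 7 and 8 (morula control), 1, 2 and 6 (morula KD) and 1, 4, 5 and 6 (blastocysts). The depth of the libraries is unknown, because FPKM carry no counts, so errors are the spread between libraries (SD, or the SE of a fit).

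The knockdown was checked on H2afz, the gene of H2A.Z. H2afz stood at 1244, 1236, 905 and 1178 FPKM in control and 415, 139 and 112 in KD 2-cell embryos. In morulae it stood at 1158, 1336, 1511 and 1421 in control and 30.3, 25.7 and 29.0 in KD libraries, and in blastocysts at 2656, 2431, 1945 and 2055 and 64.2, 67.2, 53.2 and 57.6. All KD libraries lay below all control libraries of their stage, and KD replicate 1 of the 2-cell stage was the least depleted. The log2 fold change was -5.41 in morulae (adjusted p = 9.72e-08) and -5.19 in blastocysts (adjusted p = 3.63e-08). At the 2-cell stage it was -2.53 with an unadjusted p of 4.48e-05 and an adjusted p of 0.544, which does not pass. H2afv, which encodes the close relative H2A.Z.2, also fell in KD morulae (-2.94, adjusted p = 2.92e-06) and KD blastocysts (-1.86, adjusted p = 7.98e-05).

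In control embryos the 85 members summed to 2452 ± 203 FPKM at the 2-cell stage (SD, n = 4), 12532 ± 1647 in morulae and 11229.9 ± 1051 in blastocysts. As a share of all FPKM of a library this was 0.550 ± 0.0743%, 2.13 ± 0.283% and 1.67 ± 0.220%. A mean of at least 1 FPKM was reached by 65, 57 and 64 members at the 3 stages, and a mean of at least 100 FPKM by 6, 21 and 20. By group mean, the most abundant member changed with the stage, from Dnajb9 in 2-cell embryos to Hspa8 in morulae and Hsp90aa1 in blastocysts. In control morula replicates 1 and 2, Hsp90aa1 (2512 and 2405 FPKM) stood above Hspa8 (2177 and 1976). At the other end, 12 members stayed under 1 FPKM in all 22 libraries: Dnajb5, Dnajb8, Dnajb13, Dnajc6, Dnajc16, Dnajc27, Hspa1b, Hspa1l, Hspa12b, Hspb3, Hspb7 and Hspb9. Of the 85 members, 70 passed the filter (at least 1 FPKM in at least 3 libraries) in at least 1 comparison and 15 in none, so counts below leave out the latter. Some sparse members passed it only through the group where they are high, and their calls are then not separate from the filter.

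In normal development the chaperone genes go from a set led by the endoplasmic reticulum gene Dnajb9 in 2-cell embryos to one led by the cytosolic Hsp70 and Hsp90 genes in morulae and blastocysts. The CCT ring and the mitochondrial Hsp60 and Hsp10 rose along the way. Between 2-cell embryos and morulae of the control group, 40 of 69 tested members rose and 21 fell, where a call is an adjusted p under 0.05 from limma over all genes. Of all 14686 genes tested, 40.6% rose and 40.4% fell over the same step. The members' median log2 change was 0.68, against 0.03 for all genes. Taking FPKM as deposited or dividing by each library's sum (TPM) moved the median of all genes by 0.11 and -0.14 at this step and gave 41 and 38 members higher and 17 and 21 lower. Between morulae and blastocysts 19 members rose and 14 fell, against 24.4% and 21.7% of all genes, with a median of -0.01 for members and -0.00 for all genes. As deposited or as TPM the members' counts were 19 and 14 higher and 13 and 15 lower at this step. Both steps use the same control morulae, so their values are given side by side and are not independent. P-values here measure the spread between libraries, and since libraries are pools of whole embryos, fewer cells with an RNA and less RNA per cell cannot be told apart.

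All 8 subunits of CCT rose from 2-cell embryos to morulae, in the fit above and with FPKM as deposited or as TPM. Cct7 stood at 24.3, 21.5, 33.1 and 27.6 FPKM in control 2-cell embryos, 377, 292, 488 and 539 in morulae and 255, 351, 393 and 338 in blastocysts (ENSMUSG00000030007.8, chromosome 6, 85451514 to 85468475 on GRCm38). Every morula and blastocyst library lay above every 2-cell library. The change to the morula was the largest of the ring, with log2 3.76 (SE 0.20, adjusted p = 1.72e-10). Cct8, the most abundant subunit, stood at 155, 159, 176 and 211 in 2-cell embryos, 511, 599, 634 and 674 in morulae and 491, 622, 646 and 601 in blastocysts, and rose by log2 1.61 (adjusted p = 1.22e-07). Cct3 stood at 60.7, 61.7, 98.0 and 93.9, then 130.0, 121, 171 and 189.7, then 149, 220.5, 241 and 187, again without overlap between 2-cell embryos and morulae, and rose least (log2 0.79, SE 0.20, adjusted p = 0.00167). The other subunits had log2 changes of 1.47 (Tcp1), 1.93 (Cct6a), 2.105 (Cct2), 2.95 (Cct4) and 3.10 (Cct5), each with an adjusted p under 0.05. The 8 changes passed in each of 17 other fits, among them those that leave out 1 library.

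CCT holds 1 copy of each subunit per ring, and the RNA levels of the subunits were less unequal at later stages. The mean of the most abundant subunit over that of the least abundant was 6.60 in control 2-cell embryos (Cct8 over Cct7), 3.95 in morulae (Cct8 over Cct3) and 2.96 in blastocysts (Cct8 over Cct3), compared per length in FPKM. Between morulae and blastocysts 0 of the 8 subunits passed in limma, also at an unadjusted p under 0.05, with 4 higher and 4 lower by sign, or 1 higher and 7 lower as TPM. The 8 genes lie on 8 chromosomes, so they are not a cluster. Of the CCT-like genes that are no regular part of the ring, Cct6b, best known from testis, stood at 2.57, 4.03, 4.05 and 3.31 FPKM in 2-cell embryos, 16.2, 14.6, 15.8 and 15.6 in morulae and 36.5, 26.5, 24.8 and 24.4 in blastocysts and rose at both steps (1.76, adjusted p = 5.34e-07; 0.78, adjusted p = 0.00325). Cct8l1 stood at 1.84, 1.45, 2.47 and 1.99 in 2-cell embryos and at most 0.269 later, and fell (log2 -1.48, adjusted p = 8.26e-09), and it is named after its values were seen. It passed the filter only through 2-cell embryos, where it is high, so its fall is not separate from the filter.

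**Figure D1:**
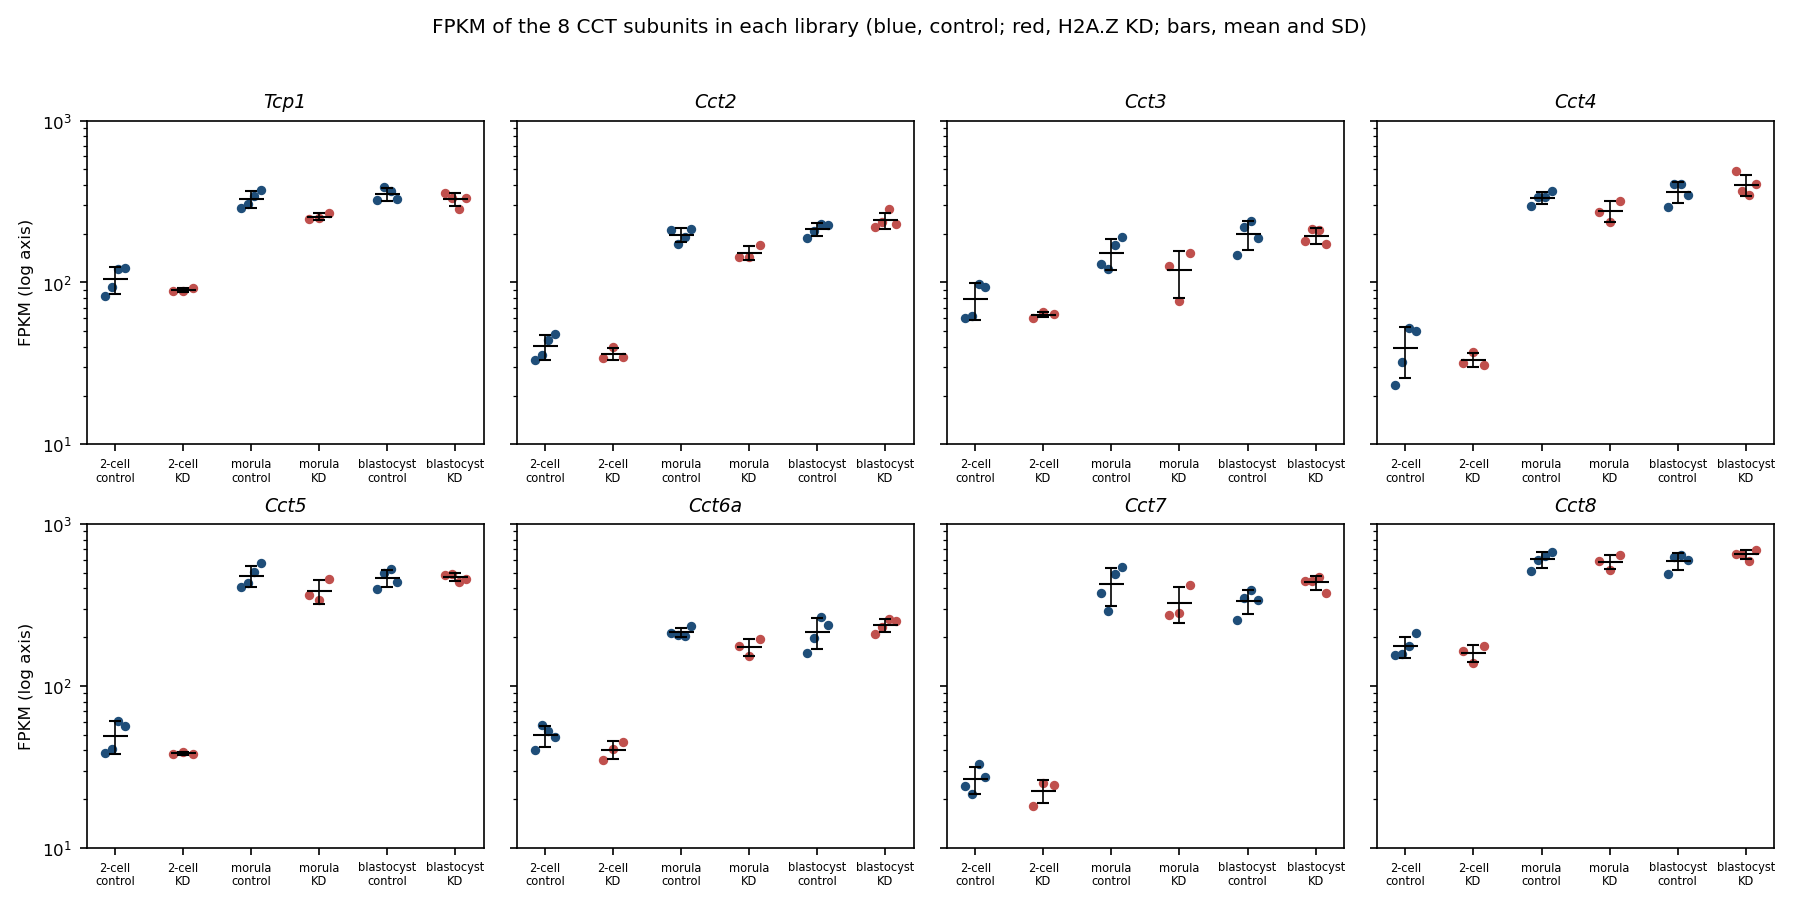
FPKM on a log axis (y) of each CCT subunit in the 6 groups (x), with 1 point per library, control in blue and H2A.Z KD in red, and black bars for the mean and SD. In controls all 8 subunits stand higher in morulae and blastocysts than in 2-cell embryos, by 0.79 (Cct3) to 3.76 (Cct7) on the log2 scale from 2-cell embryo to morula. Cct3 in KD morula replicate 2 (76.9 FPKM) lies below control 2-cell replicates 4 and 5 (98.0 and 93.9). No subunit passed between KD and control at any stage in the main limma fit.

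In the cytosol, Hspa8, the constitutive Hsp70, rose most of all members. It stood at 81.5, 80.1, 77.8 and 73.8 FPKM in control 2-cell embryos, 2177, 1976, 3839 and 4771 in morulae and 1484, 1091, 2278 and 1106 in blastocysts (ENSMUSG00000015656.17, chromosome 9, 40800984 to 40810087). Morula replicates 7 and 8 lay well above replicates 1 and 2, and blastocyst replicate 5 lay above morula replicates 1 and 2. The log2 change was 5.06 to the morula (SE 0.30, adjusted p = 7.53e-10) and -1.08 from there to the blastocyst (SE 0.30, adjusted p = 0.00875). Hspa1a, the stress-inducible Hsp70, stood at 1.24, 2.29, 0.939 and 1.47 in 2-cell embryos and at 0.0948 or less in control morulae and blastocysts. It fell by 1.28 on the log2 scale of FPKM + 1, which understates changes near 0. Without 2-cell control replicate 1, 2 or 5 it misses the filter and is not tested, and it passed in the 14 other fits that tested it. It passed the filter only through 2-cell embryos, so its fall is not separate from the filter. Its twin Hspa1b was at most 0.285 FPKM in control libraries and was not tested.

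The main J protein of the cytosol, Dnaja1, moved with Hspa8 in sign, up and then down. It stood at 70.8, 60.3, 91.9 and 86.8 FPKM, then 1079.8, 1022, 1038 and 1075, then 456, 373, 290.1 and 480.5 in the control libraries of the 3 stages. Every morula library lay above every library of the other stages, with log2 changes of 3.60 (adjusted p = 1.97e-10) and -1.43 (adjusted p = 2.15e-05). Its relative Dnaja2 was at 93.5, 102, 117 and 122 in 2-cell embryos and 51.7, 67.8, 79.1 and 73.6 in blastocysts, and fell a little at each step (-0.43 and -0.43), the first of which did not pass with FPKM as deposited. Dnajb1, the J protein of the heat shock response, rose to the morula (1.00, adjusted p = 0.000594) and fell to the blastocyst (-1.20, adjusted p = 0.000329). Dnajb4, a close relative, went from 8.35, 8.99, 29.6 and 15.4 FPKM in 2-cell embryos to 0.237, 0.129, 0.0500 and 0.0171 in morulae (log2 -3.85, adjusted p = 2.31e-09). Dnajb6, which holds back aggregation of client proteins, rose by 1.17 to the morula (adjusted p = 0.00240).

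Both cytosolic Hsp90 genes rose steeply to the morula and then parted. Hsp90aa1, the inducible form, stood at 242, 247, 162 and 177 FPKM, then 2512, 2405, 2181 and 2354, then 3160.3, 2989, 3559 and 3619. Hsp90ab1, the constitutive form, stood at 93.9, 90.1, 129 and 106, then 1293, 974, 999.6 and 1005, then 486, 679.9, 889 and 852. Neither overlaps between 2-cell embryos and morulae, and the log2 changes were 3.36 (adjusted p = 3.07e-10) and 3.17 (adjusted p = 5.94e-11). To the blastocyst Hsp90aa1 rose by 0.48 (adjusted p = 0.0451), a call lost as TPM and without any 1 of 8 of the 12 libraries (2-cell replicate 5, all 4 of the morula, and blastocyst replicates 1, 5 and 6), and Hsp90ab1 fell by 0.60 (adjusted p = 0.00452). Of the nucleotide exchange factors of Hsp70, Hspbp1 rose by 1.81 to the morula (adjusted p = 3.79e-06) and fell by 1.73 to the blastocyst (adjusted p = 2.46e-05), Hspa4 rose by 0.85 to the morula (adjusted p = 9.33e-05), Hsph1 did not pass at either step (0.13 and -0.04), and Hspa4l, at 3.05, 2.52, 2.68 and 3.16 FPKM in 2-cell embryos, fell by 1.79 (adjusted p = 2.57e-08). Control morulae had Hspa4l at 0.238, 0.234, 0.0993 and 0.185 FPKM. Hspa4l passed the filter only through 2-cell embryos, where it is high, so its fall is not separate from the filter. Dnajc2 and Hspa14, which sit together at the ribosome, rose to the morula by 2.24 (adjusted p = 4.56e-08) and 0.59 (adjusted p = 0.0312), and the latter call is lost as TPM and without 2-cell replicate 1, 2 or 4 or morula replicate 7 or 8.

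In the endoplasmic reticulum the members did not move together over development. Dnajb9 (ERdj4), which binds misfolded proteins and the chaperone BiP, stood at 458, 399.9, 424 and 458 FPKM in control 2-cell embryos, 151, 188, 152 and 163 in morulae and 18.6, 23.9, 25.0 and 20.9 in blastocysts (ENSMUSG00000014905.4, chromosome 12, 44205559 to 44210326). The 3 stages do not overlap, and Dnajb9 fell by 1.58 (SE 0.14, adjusted p = 7.82e-08) and by 2.85 on the log2 scale (SE 0.14, adjusted p = 1.75e-09). Hspa5, the gene of BiP, stood at 44.2, 54.8, 94.5 and 120.2, then 70.8, 153, 142 and 165, then 156, 297, 412 and 276, with overlap between neighbouring stages. It did not pass to the morula (0.62, adjusted p = 0.0987) and rose to the blastocyst (1.08, adjusted p = 0.0159), but not as TPM or without morula control replicate 1 or blastocyst control replicate 5. Hsp90b1 (GRP94), the Hsp90 of this compartment, was at 33.3, 46.4, 34.8 and 40.6 in morulae and 89.1, 134, 146 and 152 in blastocysts and rose at both steps (0.68, adjusted p = 0.00195; 1.69, adjusted p = 1.47e-06). The J proteins Dnajc3 and Dnajc10 rose to the blastocyst by 1.03 (adjusted p = 7.45e-05) and 0.49 (adjusted p = 0.0245, not passing as TPM or without morula replicate 1, 2 or 7 or blastocyst replicate 4 or 5), and Dnajb11 (ERdj3) fell by 0.59 (adjusted p = 0.0272, not passing with FPKM as deposited or without morula replicate 2 or 8 or blastocyst replicate 1).

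The 5 members named for the mitochondrion rose at both steps or at the former. This list was fixed by role, and members outside it were not sorted by compartment. Among those outside it are Dnajc30, which fell to the morula, and Dnajc15, which rose to the morula and then fell, both named after their values were seen. Hspd1 (Hsp60) stood at 20.0, 14.4, 22.7 and 24.7 FPKM in control 2-cell embryos, 143, 100.3, 114 and 109.5 in morulae and 157, 199, 231 and 239 in blastocysts. Its lid Hspe1 (Hsp10) stood at 38.8, 32.8, 29.7 and 26.5, then 185, 149, 177 and 169, then 591, 418, 385 and 462. For both, the 3 stages do not overlap, and the log2 changes were 2.30 and 0.80 for Hspd1 (adjusted p = 3.03e-09 and 0.000639) and 2.22 and 1.42 for Hspe1 (adjusted p = 1.05e-07 and 5.01e-05). Dnajc19, a J protein of the inner membrane, went from 4.60, 4.57, 3.29 and 4.84 FPKM to 88.7, 95.2, 134 and 133 and 294, 208, 185 and 213 (log2 4.25 and 0.98, adjusted p = 3.75e-10 and 0.00334). Hspa9, the mitochondrial Hsp70, and its J protein Dnaja3 rose to the morula (0.95, adjusted p = 3.82e-05; 1.10, adjusted p = 2.57e-05) and did not pass after it.

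The small heat shock proteins, which hold unfolded proteins without ATP, were sparse, apart from Hspb1. Hspb1 (Hsp27) stood at 55.5, 58.0, 96.2 and 56.9 FPKM in control 2-cell embryos, 29.2, 23.5, 18.3 and 16.2 in morulae and 40.4, 52.6, 52.4 and 37.8 in blastocysts. The morula libraries lay lowest, with log2 changes of -1.73 (adjusted p = 4.41e-07) and 1.05 (adjusted p = 0.000258). Hspb2 was listed at 0 in all 2-cell libraries and stood at 1.09, 0.559, 0.461 and 0.341 in morulae and 4.99, 9.45, 4.44 and 7.62 in blastocysts (morula to blastocyst 2.18, adjusted p = 3.07e-07). Hspb8 was at 0.520 or less in control libraries of the earlier stages and at 4.55, 11.3, 20.1 and 13.7 in blastocysts (log2 3.00, adjusted p = 2.72e-07). All 4 small heat shock genes tested rose from morula to blastocyst, where 24.4% of all genes did. Hspb2 and Hspb8 passed the filter only through blastocysts, where they are high. Their part in this count was set by the filter, so nothing is read from it.

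In KD 2-cell embryos H2afz stood below every control library, but neither it nor any other gene was called, so no change of a chaperone gene, nor its absence, is read from this stage. In numbers, 0 of 64 tested members passed between KD and control in limma, as did 0 of all 12160 genes (0% higher and 0% lower). At an unadjusted limma p under 0.05 there were 2 members, Hspa2 (0.63) and Dnajc21 (0.76), and 701 genes in all. The lowest log2 value among members was that of Dnajb4 (-0.83, adjusted p = 0.828), at 10.5, 10.6 and 2.80 FPKM in KD and 8.35, 8.99, 29.6 and 15.4 in control libraries, where KD replicate 4 lay lowest. Without KD replicate 1, 3 genes passed lower, and without control replicate 2, 1 gene did, with 0 members in either fit. A fit over all 22 libraries together called 26 genes higher and 20 lower, with 0 members among them, and exact two-sided permutation tests on the named genes gave 0 members under 0.05 and 0.0286 for H2afz, the smallest p that 4 against 3 libraries allow. The members' median was -0.03 and that of all genes 0.00. By sign all 8 CCT subunits were lower in KD, under each of the 3 scalings, with log2 values from -0.26 (Cct5) to -0.06 (Cct8). Dnajb9 stood at 402, 422 and 415 FPKM in KD libraries, inside the control range, and Hspa8 at 73.3, 77.1 and 48.0, where replicate 4 was the lowest of the stage. The summed FPKM of the 85 members was 2267 ± 79.9 in KD (n = 3).

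KD morulae had more RNA of the small heat shock gene Hspb1 and of Dnajb9 than control morulae, and less of a few DnaJ genes. The abundant cytosolic chaperones and the CCT ring were not called. In KD morulae 2 of 57 tested members rose and 5 fell, against 4.22% and 9.05% of all 10989 genes tested. With an absolute log2 fold change above 1 as well, Hspb1 rose and Dnajc17 fell (1 member each), against 1.00% and 2.59% of all genes. The members' median log2 fold change was -0.17, that of all genes 0.02. With FPKM as deposited or as TPM the median of all genes moved by -0.10 and -0.15, the share of all calls that are higher went from 31.8% to 15.3% and 11.9%, and the members' counts became 2 and 2 higher and 7 and 11 lower. The number of higher members was 1 without KD replicate 1. The number of lower members was 3 without control replicate 2, 7 or 8 or without KD replicate 6, 1 without KD replicate 1 and 2 without KD replicate 2, and 6 without control replicate 1. Dnajc17 stays under an absolute log2 fold change of 1 without control replicate 2 or KD replicate 6, which leaves 0 members lower by that measure.

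Hspb1 stood at 65.3, 52.1 and 41.0 FPKM in KD morulae against 29.2, 23.5, 18.3 and 16.2 in controls (ENSMUSG00000004951.10, chromosome 5, 135887919 to 135889563). All 3 KD libraries lay above all 4 control libraries, and within both groups replicates 1 and 2 lay above the higher numbers. The log2 fold change was 1.37 (SE 0.19, adjusted p = 0.00296) and the call was kept in 15 of 15 other fits. Dnajb9 stood at 269, 239 and 243 in KD morulae, above all control values, and rose by 0.74 (SE 0.15, adjusted p = 0.0122). That call ends without KD replicate 1 and with no filter on low values. The blood gene Hba-a1, a marker of other cells, was higher in the same KD libraries, with values given further below.

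Of the members that fell in KD morulae, Dnajc17, a J protein with an RNA-binding motif, stood at 16.0, 18.3, 13.2 and 11.6 FPKM in control and 6.60, 7.0003 and 4.55 in KD libraries (log2 fold change -1.05, SE 0.19, adjusted p = 0.00768). Dnajc24, which takes part in the making of diphthamide on elongation factor 2, stood at 32.4, 35.1, 33.5 and 36.9 and 18.7, 20.9 and 17.5 (log2 fold change -0.71, SE 0.15, adjusted p = 0.0162). Dnaja3 of the mitochondrion stood at 19.0, 16.6, 19.1 and 19.8 and 10.1, 8.88 and 11.0 (log2 fold change -0.73, SE 0.16, adjusted p = 0.0158). For these 3 genes no KD library reached the lowest control library. The calls of all 3 end with no filter on low values, and those of Dnajc24 and Dnaja3 without KD replicate 1. That of Dnaja3 also ends without KD replicate 2, and that of Dnajc24 in 1 fit over all 22 libraries and with the replicate block. Dnajc4 (log2 fold change -0.75, SE 0.22, adjusted p = 0.0474) and Dnajc14 (log2 fold change -0.56, SE 0.16, adjusted p = 0.0474) lie near the threshold, and their calls hold in 1 and 0 of the 7 fits that leave out a library. Both calls also end with the replicate block.

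None of the 8 CCT subunits passed in KD morulae, and 7 of 8 were lower by sign, all 8 with FPKM as deposited or as TPM, where 2 passed under TPM. Cct7 stood at 276, 283 and 419.8 FPKM in KD and 377, 292, 488 and 539 in control morulae, with overlap (-0.24, adjusted p = 0.559). Cct2 stood at 144, 143 and 170.0 and 210.4, 173, 189.7 and 214, without overlap (-0.24, adjusted p = 0.302). Hspa8 stood at 1456, 1582 and 2053 in KD against 2177, 1976, 3839 and 4771 in controls, where replicates 7 and 8 made the spread, and did not pass (-0.70, SE 0.33, adjusted p = 0.178). Among replicates 1 and 2, and among the higher numbers, each KD value of Hspa8 lay below each control value. Dnaja1, at 756, 732 and 856 in KD and 1079.8, 1022, 1038 and 1075 in control morulae, had all KD libraries below all controls and did not pass either (-0.31, adjusted p = 0.153). Summed over the 85 members, FPKM were 9695 ± 919.6 in KD (n = 3) against 12532 ± 1647 in control morulae, or 1.58 ± 0.168% and 2.13 ± 0.283% of a library's FPKM.

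In KD blastocysts Dnajb9 of the endoplasmic reticulum and the Hsp70 partners Dnajb1, Dnajb2 and Hspbp1 rose, and 6 DnaJ C genes fell. The inducible Hsp70 genes were near 0 in both groups. In KD blastocysts 10 of 62 tested members rose and 12 fell, against 16.7% and 19.8% of all 11828 genes tested. Above an absolute log2 fold change of 1, 3 members rose (Dnajb9, Dnajb2 and Hspbp1) and 5 fell (Dnajc4, Hspb2, Dnajc24, Hspb11 and Cct6b), against 6.10% and 7.76% of all genes. The median was 0.08 for members and 0.00 for all genes. The number that rose was 6 without control replicate 6, and the number that fell past a log2 fold change of 1 was 3 without control replicate 1. With no filter on low values the calls of Dnajb11, Dnajc19, Dnajc5g, Hsp90ab1, Hspa5, Hspa9, Hspb1 and Hspe1 were lost.

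Of 6 members named for the endoplasmic reticulum, 3 rose in KD blastocysts and 0 fell, against 16.7% and 19.8% of all genes, with no test of the group. This list was fixed by role, and members outside it, among them Hspa13, which fell, were not sorted by compartment. Dnajb9 stood at 88.5, 87.0, 86.1 and 92.6 FPKM in KD against 18.6, 23.9, 25.0 and 20.9 in control blastocysts. The KD libraries lay close together, above all controls and below all morulae, and the log2 fold change was 1.97 (SE 0.15, adjusted p = 3.18e-06). Dnajb11 stood at 57.6, 42.8, 51.6 and 41.0 in KD and 18.1, 33.4, 38.7 and 31.1 in control libraries, without overlap (0.70, SE 0.20, adjusted p = 0.0173). Hspa5 stood at 416, 318, 576 and 403 and 156, 297, 412 and 276 (ENSMUSG00000026864.13, chromosome 2, 34771970 to 34777547). Here control replicate 5 lay among the KD values, and the call (0.64, SE 0.23, adjusted p = 0.0453) was kept in 6 of 16 other limma fits and ended with FPKM as deposited, as TPM and without control replicate 1, 4 or 6 or KD replicate 1, 5 or 6 (exact permutation p = 0.0571). Dnajc3 (0.36, adjusted p = 0.125), Hsp90b1 (0.25, adjusted p = 0.285) and Dnajc10 (-0.08, adjusted p = 0.794) did not pass.

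Cytosolic members that rose in KD blastocysts include J proteins and regulators of Hsp70. Dnajb1 stood at 29.6, 29.2, 32.6 and 40.1 FPKM in KD and 10.6, 21.9, 20.6 and 16.3 in control blastocysts (0.93, SE 0.20, adjusted p = 0.00314). Dnajb2, which passes clients of Hsp70 on to degradation, stood at 4.65, 4.84, 9.25 and 5.84 and 0.680, 2.81, 3.05 and 1.93 (1.25, SE 0.26, adjusted p = 0.00274). Hspbp1, a nucleotide exchange factor of Hsp70, stood at 19.8, 22.4, 25.2 and 27.8 and 8.47, 9.82, 14.5 and 9.72 (1.12, SE 0.17, adjusted p = 0.000462). In these 3 genes every KD library lay above every control library. Hspb1 stood at 89.5, 69.0, 61.8 and 69.9 in KD and 40.4, 52.6, 52.4 and 37.8 in controls, again without overlap (0.66, adjusted p = 0.0158), and its call ends without control replicate 6. Hsp90ab1 stood at 986, 974, 1582 and 1076 and 486, 679.9, 889 and 852 (0.68, adjusted p = 0.0136), with KD replicate 5 far above the other KD libraries. Hsp90aa1 had 2968, 3439, 3709.8 and 3546 in KD and 3160.3, 2989, 3559 and 3619 in control blastocysts, overlapping (0.04, adjusted p = 0.860). Hspa8 stood at 2525, 2476, 2520.1 and 1424 in KD and 1484, 1091, 2278 and 1106 in controls, where KD replicate 6 lay among the controls, and did not pass (0.62, adjusted p = 0.0904).

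Of the DnaJ C genes, the largest family, 6 of 21 tested fell in KD blastocysts (Dnajc4, Dnajc24, Dnajc19, Dnajc5g, Dnajc17 and Dnajc30) and 1 rose (Dnajc21), where 19.8% and 16.7% of all genes did, a difference that was not tested. Dnajc5g, at 0.918 FPKM or less in KD, passed the filter only through control libraries, so its fall is not separate from the filter. Dnajc24 stood at 15.4, 15.9, 11.9 and 14.5 FPKM in KD and 45.8, 42.1, 39.7 and 36.1 in control blastocysts (ENSMUSG00000027166.14, chromosome 2, 105966709 to 106003549). Dnajc4 stood at 6.48, 5.79, 4.47 and 4.14 and 17.6, 18.2, 15.1 and 14.8. In both genes all KD libraries lay far below all controls, with log2 fold changes of -1.44 (SE 0.19, adjusted p = 0.000157) and -1.49 (SE 0.20, adjusted p = 0.000195). Dnajc17 stood at 7.79, 5.64, 7.81 and 8.71 and 9.86, 17.0, 14.7 and 13.7, without overlap (-0.79, adjusted p = 0.00509). Dnajc19 stood at 125, 153, 82.1 and 119 and 294, 208, 185 and 213, without overlap (-0.91, adjusted p = 0.0147). Dnajc30 (-0.66), Dnajc5g (-0.86), Dnajc21 (0.55) and Hspa13 of the Hsp70 family are named after their values were seen. The call of Dnajc21 is lost without control replicate 4 or 6 or KD replicate 6. Hspa13 fell as well (-0.77, adjusted p = 0.00658). Only 1 KD library reached 1 FPKM for Hspa13, so it passed the filter only through control libraries. Its fall is therefore not separate from the filter.

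Other mitochondrial members went in both directions. Hspe1 stood at 250.2, 382, 246 and 307 FPKM in KD and 591, 418, 385 and 462 in control blastocysts (-0.64, SE 0.23, adjusted p = 0.0433). Hspa9 stood at 99.2, 107, 166 and 143 and 67.2, 90.1, 111 and 93.9 (0.51, SE 0.17, adjusted p = 0.0336). For Hspe1 the highest KD library lies just under the lowest control, and for Hspa9 control replicate 5 lies above KD replicates 1 and 4. Both calls end without control replicate 1, 4 or 6 or KD replicate 5 or 6, that of Hspe1 also without KD replicate 1 (exact permutation p = 0.0571), and that of Hspa9 with FPKM as deposited and as TPM. Hspd1 stood at 129, 192, 183 and 191 and 157, 199, 231 and 239 and did not pass (-0.24, adjusted p = 0.288), nor did Dnaja3 (0.31, adjusted p = 0.215).

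Of the sparse members, Hspb2 stood at 2.28, 2.40, 0.883 and 1.32 FPKM in KD and 4.99, 9.45, 4.44 and 7.62 in control blastocysts (-1.46, adjusted p = 0.00139). Hspb11, a part of the transport machinery of cilia, stood at 8.05, 6.20, 7.40 and 5.42 and 27.3, 17.5, 13.4 and 13.1 (-1.22, adjusted p = 0.00333). Dnajb4 stood at 0.616, 0.427, 0.328 and 0.401 and 1.30, 1.13, 1.60 and 1.34 (-0.69, adjusted p = 0.00331). KD and control libraries do not overlap for any of these 3. Dnajb4 passed the filter only through control libraries, where it is higher, so its call is not separate from the filter. That call is also lost in 1 fit over all 22 libraries. Hspa1a stayed at 0.158 or less in KD blastocysts and Hspa1b at 0.151 or less.

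The CCT ring did not pass in KD blastocysts in any of its 8 genes, with 6 of 8 higher by sign, or 8 of 8 as TPM with 1 passing. In exact permutation tests Cct2 (0.19) and Cct7 each had p = 0.0286, the smallest possible with 4 against 4 libraries and not adjusted for the number of genes. Hspa4 (0.40) and Dnaja2 (0.26), outside the ring and also not called in limma, had the same permutation p. Cct7 stood at 448, 446, 474 and 376 FPKM in KD and 255, 351, 393 and 338 in control blastocysts, where only KD replicate 6 falls in the control range (0.40, SE 0.16, adjusted p = 0.0613). Tcp1 stood at 357, 333, 286 and 333 and 322, 386, 367 and 326 (-0.09, adjusted p = 0.701). Cct6b, outside the regular ring, stood at 13.0, 13.1, 11.8 and 10.5 in KD and 36.5, 26.5, 24.8 and 24.4 in control blastocysts, without overlap, and fell (-1.13, SE 0.20, adjusted p = 0.00129). Summed over the 85 members, FPKM were 12783 ± 884 in KD against 11229.9 ± 1051 in control blastocysts, or 2.06 ± 0.213% and 1.67 ± 0.220% of a library's FPKM. The summed FPKM of the 8 subunits was 2958 ± 65.8 in KD and 2729 ± 351 in control blastocysts (SD, n = 4 each).

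**Figure D2:**
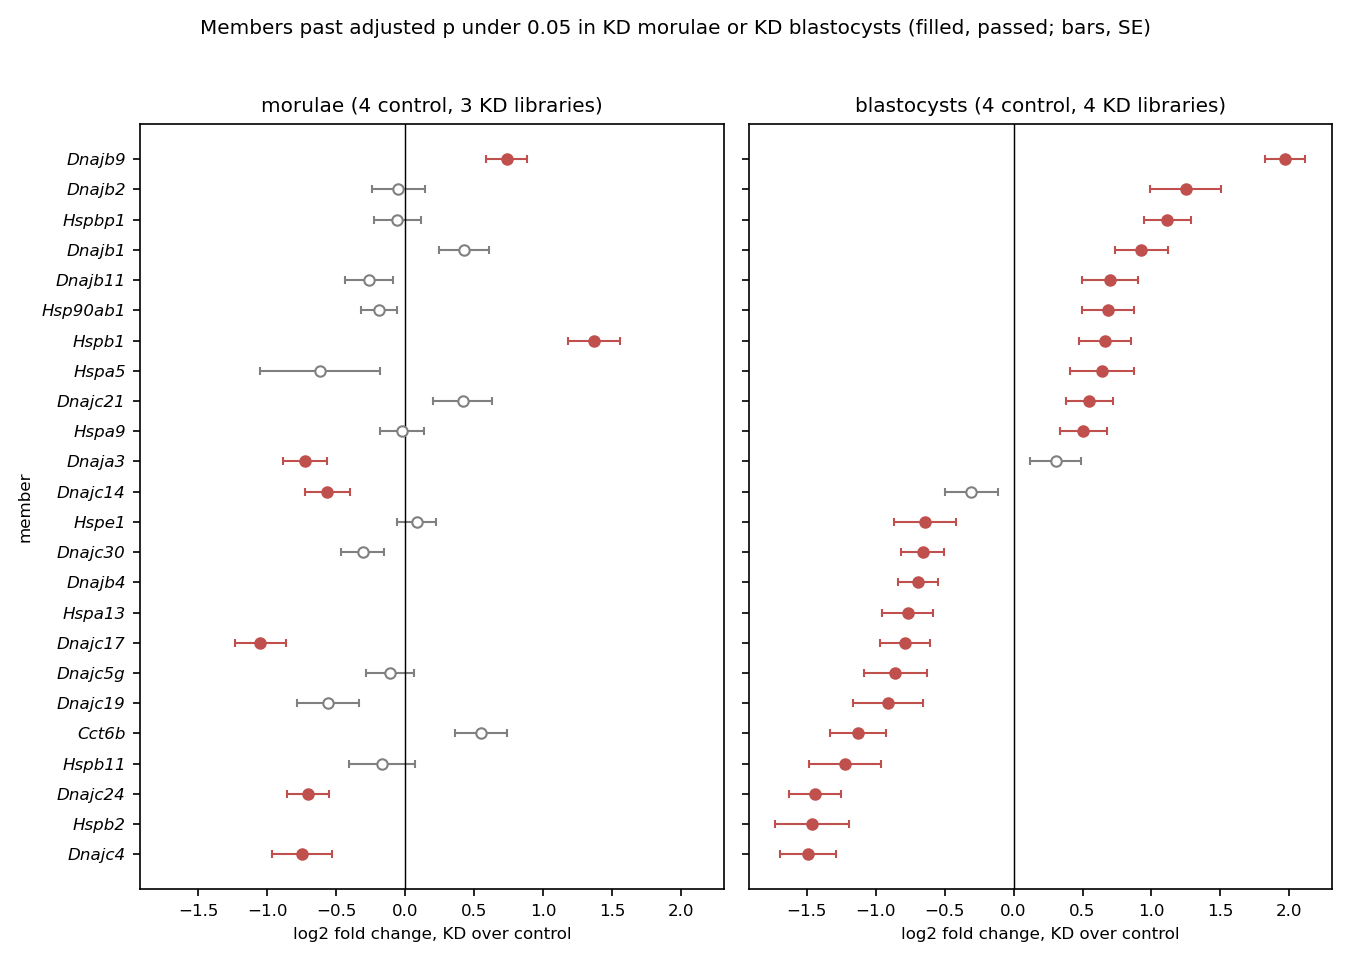
Log2 fold change of KD over control (x) for the 24 members (y) that passed in morulae or blastocysts, with SE bars, filled red where adjusted p was under 0.05 and open grey where not, and no point where the gene was not tested. Dnajb9 and Hspb1 are higher, and Dnajc4, Dnajc17 and Dnajc24 lower, in filled points at both stages, with Dnajb9 at 0.74 in morulae and 1.97 in blastocysts.

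Passing in both stages, in separate libraries, were Dnajb9 and Hspb1, higher, and Dnajc17, Dnajc24 and Dnajc4, lower. These are 2 and 3 of 56 members tested at both stages, where 1.94% of all 10335 genes tested at both were higher and 5.66% lower in both. Whether the KD effect differed between the stages was tested as an interaction over the 15 libraries of morulae and blastocysts, where 6 of 63 tested members were higher in blastocysts and 4 lower, against 5.43% and 6.30% of all 12727 genes. The members' median difference was 0.11 and that of all genes -0.01. This fit shares its libraries with the comparisons above and is no separate support for them. FPKM as deposited and TPM moved the median of all genes by 0.12 and 0.25 here, took the share of calls that are higher from 46.3% to 56.0% and 71.3%, and gave 8 and 11 members higher and 4 and 3 lower. The number of higher members was 3 without morula KD replicate 1 or 2.

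The KD effect was more positive in blastocysts for Dnajb9 (1.19, SE 0.19, adjusted p = 0.000948), Hspbp1 (1.13, adjusted p = 0.00572), Dnaja3 (1.00, adjusted p = 0.0129), Dnajb2, Dnajb11 and Hsp90ab1. It was more negative for Cct6b, at 19.2, 29.1 and 17.3 FPKM in KD and 16.2, 14.6, 15.8 and 15.6 in control morulae (-1.71, SE 0.28, adjusted p = 0.00115), Hspb2 (-1.58, adjusted p = 0.00618), Dnajb4 and Dnajc24. Those of Dnajb9, Hspbp1, Cct6b and Hspb2 passed in all 21 other fits, while that of Dnajc24 passed in 6 and that of Dnajb11 in 10. Without 1 library the call was lost for Hsp90ab1 (morula KD replicate 1 or 2, blastocyst control replicate 4), Dnajb2 (morula control replicate 1, morula KD replicate 1 or 2), Dnajb11 (9 of the 15 libraries) and Dnajc24 (10 of the 15). Those of Dnajb2, Dnajb11, Dnajc24 and Hsp90ab1 were also lost with no filter, and those of Dnajb4 and Dnajc24 with a pseudocount of 0.1. The replicate block ended those of Dnaja3, Dnajb4, Hsp90ab1, Dnajb11 and Dnajc24. In morulae Dnajb4 stood at 0.237 FPKM or less and Hspb2 at 1.09 or less, so a fall there could hardly show. Both passed the filter through blastocysts, so their differences between the stages are not separate from it. For Hspb1 the effects of 1.37 and 0.66 were not shown to differ (adjusted p = 0.0815), nor were those of Hspa8 (-0.70 and 0.62, adjusted p = 0.0803) or Hspa5 (-0.62 and 0.64, adjusted p = 0.139). All 8 CCT subunits had a higher value in blastocysts by sign under each of the 3 scalings, with 0 passing in the fit used here, 1 with FPKM as deposited and 2 as TPM.

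**Figure D3:**
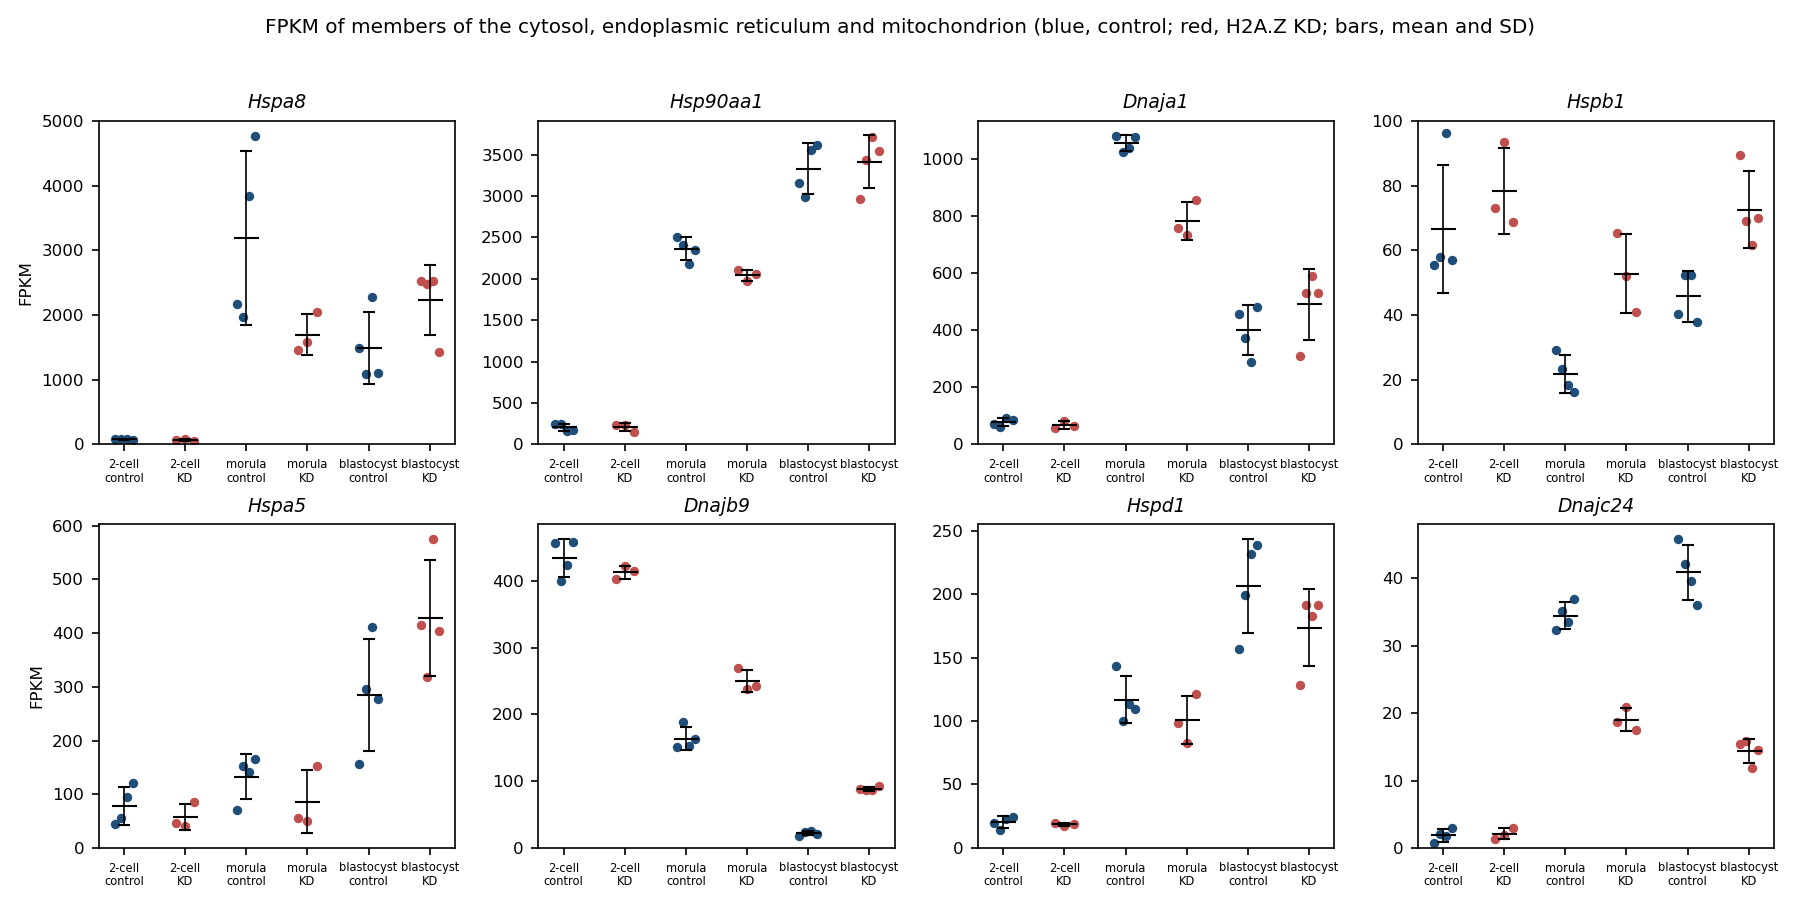
FPKM (y, linear axes that start at 0 and differ between panels) of 8 members in the 6 groups (x), with 1 point per library, control in blue and H2A.Z KD in red, and black bars for the mean and SD. Hspa8, Hsp90aa1 and Dnaja1 are low in 2-cell embryos and high in morulae, Dnajb9 runs from 399.9 to 458 FPKM in control 2-cell embryos down to 18.6 to 25.0 in control blastocysts, and Dnajc24 is lower in KD than in control at the later stages.

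Of the other genes of the chaperone pathways, 68 were tested in KD blastocysts besides the members, of which 15 rose and 15 fell, against 16.7% and 19.8% of all genes. In KD morulae 1 of 68 rose and 3 fell, against 4.22% and 9.05% of all genes. The shorter lists below are counts beside these same shares, with no test of a list. The chaperones and folding enzymes of the endoplasmic reticulum had 5 of 9 higher in KD blastocysts and 0 lower (Calr, Creld2, P4hb, Pdia3 and Manf), and 0 of 9 passed in KD morulae. Creld2, a gene of the unfolded protein response, stood at 134, 86.7, 124 and 101 FPKM in KD and 21.0, 49.1, 46.3 and 39.5 in control blastocysts (1.55, adjusted p = 0.000319), and its effect differed from that in morulae (interaction 1.44, adjusted p = 0.00407). Stip1, which links Hsp70 to Hsp90, stood at 378, 266, 443 and 376 and 68.1, 158, 225 and 146, without overlap (1.39, adjusted p = 0.00170, interaction 1.61, adjusted p = 0.00474). With Bag1 and Hyou1 it makes 3 of 13 other Hsp70 cochaperones that rose, while 0 fell. Cdc37, which brings kinases to Hsp90, rose too (1.16, adjusted p = 0.00638), 1 of 2 Hsp90 cochaperones that rose while 3 of 13 fell. Of 5 genes of mitochondrial quality control Clpx rose and 0 fell in KD blastocysts. In morulae the Hsp70 cochaperones, the mitochondrial list and the heat shock factors had 0 passing. At the 2-cell stage 0 passed in any of these lists. Bag1, Hyou1, Calr, P4hb, Pdia3 and Manf, and Tubb6, Hsf1 and Hsbp1 below, were singled out after their values were seen.

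Among partners and clients of CCT some genes passed in KD embryos where the ring itself did not. Prefoldin, which hands over actin and tubulin, and the phosducin-like proteins had 4 of 11 genes lower and 2 higher in KD blastocysts. Pfdn1 stood at 68.6, 72.1, 46.6 and 61.2 FPKM in KD and 216, 178, 151 and 161 in control blastocysts, and at 36.4, 31.9 and 41.0 and 69.2, 81.2, 99.4 and 91.0 in morulae. It fell in both, without overlap, by 1.49 (adjusted p = 0.000387) and by 1.08 (adjusted p = 0.00821). The tubulin cofactors, which take up tubulin after CCT, had 3 of 4 lower in KD blastocysts (Tbca -1.31, Tbce -1.23, Tbcb -0.76) and Tbcb lower in morulae (-0.66, adjusted p = 0.0175, lost with no filter and without KD replicate 1 or 2). Of 10 actin and tubulin genes, Tubb6 rose and 4 fell in KD blastocysts, all of them tubulins, while Actb (0.14, adjusted p = 0.605) did not pass. Over normal development Actb and Actg1 rose to the morula by 5.22 and 6.46 (adjusted p = 5.35e-13 and 4.35e-14). They are the largest of 5 rises among the 10 genes at this step, where Tubb2a and Tubb5 fell, both named after their values were seen.

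The heat shock factors Hsf1 and Hsf2 went in opposite directions from 2-cell embryo to morula, and both fell from there to the blastocyst (-0.80, adjusted p = 0.0163; -0.83, adjusted p = 0.00345). Hsf1 stood at 21.3, 21.9, 22.7 and 18.7 FPKM in control 2-cell embryos and 7.36, 6.08, 2.42 and 2.07 in morulae, and fell by 2.31 (adjusted p = 6.10e-07). Hsf2 went from 0.808, 1.95, 1.18 and 1.87 to 28.1, 35.3, 41.5 and 37.6 and rose by 3.80 (adjusted p = 2.03e-10). In KD blastocysts Hsf1 was at 3.80, 2.09, 6.48 and 2.82 against 1.46, 1.86, 2.30 and 1.87 in controls, with overlap, and rose (0.67, adjusted p = 0.0340), while Hsbp1 fell, the only other 1 of 3 genes of this list to pass.

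Markers of other cells and stages were read in the same libraries, and their part in the results above was not tested. Oocyte markers (4 of 4 present, mostly Oosp1) summed to 729 to 990 FPKM in control and 779 to 1031 in KD 2-cell embryos, and to at most 9.95 in control and 10.7 in KD morulae. Markers of cumulus and granulosa cells (Has2, Ptx3, Tnfaip6, Ptgs2, Inhba, Fshr and Foxl2) summed to at most 3.47 FPKM in 2-cell libraries, mostly Tnfaip6, and at most 0.168 at later stages, with 5 to 7 of the 7 at 0. Of 4 blood genes, Hba-a1 was the most abundant throughout and 2 or 3 of the 4 were at 0 in each library. The blood sum was 1.16 to 3.63 in control and 4.23 to 7.77 in KD morulae, and 0.612 to 1.79 and 2.09 to 3.71 in blastocysts, so that it moved with the KD as Hspb1 and Dnajb9 did. Hba-a1 rose in KD morulae (1.20, adjusted p = 0.0172) and KD blastocysts (0.80, adjusted p = 0.00986), and the marker genes given by name were singled out after their values were seen.

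Some markers of the lineages also moved with the KD. In morulae the inner cell mass markers summed to 163 to 213 FPKM in control and 101 to 120.1 in KD libraries, with Nanog lower (1 of 3 tested, -2.23, adjusted p = 0.00645). The 2-cell markers summed to 1.46 to 6.03 FPKM in control and 4.50 to 9.18 in KD morulae. Trophectoderm markers summed to 93.1 to 131 and 69.6 to 104 there. Both lists overlap between the groups, and 0 of their genes passed. In blastocysts the trophectoderm list (Cdx2, Gata3, Eomes, Krt8 and Krt18) summed to 981 to 1468 FPKM in control and 571 to 765 in KD blastocysts, with 1 of 5 lower (Krt18) and 0 higher. The inner cell mass markers had 1 of 4 higher there (Sall4), summing to 124 to 249.8 in control and 168 to 310.5 in KD libraries. The 2-cell list summed to 0.291 to 0.964 in control and 3.08 to 14.0 in KD blastocysts, where Zfp352 rose, the only 1 of its 5 genes tested. Every control sum was under 1 FPKM, so Zfp352 passed the filter only through KD libraries and its call is not separate from the filter. For primitive endoderm 1 of 4 genes was tested and 0 passed, with sums of 10.2 to 20.3 and 10.2 to 37.1.

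The members are spread over 19 chromosomes, and 4 neighbouring pairs lie within 100 kb. Hspd1 (chromosome 1, 55077835 to 55088243, minus strand) and Hspe1 (55088132 to 55091307, plus strand) share 112 bases of annotated exon at their starts, and Hspa1b, Hspa1a and Hspa1l lie next to each other on chromosome 17. The heat shock element, the site of heat shock factors, was looked for as GAA, any 2 bases, TTC, any 2 bases and GAA, on either strand, from 250 bases before to 50 bases after each start in the RefSeq promoter table of GRCm38.p6. It was present for 4 of 69 members with a promoter in the table (5.80%; Dnajb6, Hspd1, Hspe1 and Hsph1) and for 179 of all 27025 genes (0.662%). The table holds no promoter for 16 members, among them Hspa8, Hsp90aa1, Hsp90ab1, Hspa9 and Cct4, so these were not searched. The shorter GAANNTTC, which the longer motif contains, was found for 16 of 69 members (23.2%) and for 9.04% of all genes. The 2 overlapping matches near Hspe1 lie 89 and 84 bases before its start, within the annotated span of Hspd1. Read from the other strand they lie 144 and 139 bases before the inner of 2 Hspd1 starts, while the window of the outer start holds 0 matches. That of Dnajb6 lies 46 bases before its start, or 127 before another annotated start. These sites are shown, with the matches in capitals, as those that lie before a start. Hspd1 and Hspe1 share the same DNA, so the 4 members are not 4 separate sites. The match of Hsph1 lies after its start and is not shown. A match is a stretch of letters, and binding was not measured here.
Hspe1, chr1:55088054-55088081, plus strand: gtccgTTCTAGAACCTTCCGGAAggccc
Hspd1, chr1:55088054-55088081, minus strand: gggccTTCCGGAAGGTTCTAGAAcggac
Dnajb6, chr5:29735847-29735869, plus strand: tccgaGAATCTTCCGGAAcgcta

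Some values are less certain because reads can fit more than 1 gene. Of the stretches of 75 bases in its transcripts, Hspa1a shares 54.2% with genes elsewhere, Hspa1b 55.8%, Hspb1 46.4% (with Hsp25-ps1), Hsp90aa1 42.8%, Hspa8 32.0% and Hspd1 29.6%, while of the 8 CCT subunits only Cct6a shares any (2.16%). How reads from such stretches were shared out was not examined. Exons also overlap those of neighbours, among others 30.2% of Hspb2 with Cryab, 26.2% of Dnajc30 with Bud23, 19.0% of Hspa1a with Gm20481, 17.0% of Dnajc14 with Ormdl2, 12.5% of Cct6a with Psph, 11.4% of Tcp1 with Acat3, 10.3% of Hsp90b1 with 1810014B01Rik, 8.26% of Dnajc17 with Zfyve19, 7.05% of Dnaja1 with Smu1, 6.22% of Cct8 with Usp16 and 6.14% of Dnajc24 with Dcdc5, and the use of strands in the deposited values is not stated.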

How the data were processed

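The deposited FPKM table was used, in which the authors give 1 value per gene and library for 22 libraries, made from reads aligned with STAR to mm10 (GRCm38) and quantified with StringTie 2.1.4. The members and the gene lists were chosen with earlier results of these data known. Libraries were scaled by the median of ratios, and genes with at least 1 FPKM in at least 3 libraries of a fit were tested on log2(FPKM + 1) with limma 3.58.1 (lmFit, eBayes with a trend) in R 4.3.3. P-values were adjusted over all genes tested (Benjamini-Hochberg), and a gene passed at an adjusted p under 0.05. Results of 1 member and 1 other gene are not reported here. The code was tested on simulated data. Tables and figures were made in Python 3.11.15. Depth is unknown, since FPKM are not counts. Gene positions are from GENCODE vM21.

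Genes were named by a rule: those fixed by role (CCT, mitochondrion, endoplasmic reticulum, cytosol and small), the 5 largest rises and 5 largest falls among members that passed in each comparison, the 3 most abundant members of each group, H2afz and H2afv, and the 3 largest rises and falls among other chaperone pathway genes. Other names belong to a count or a list, or the text marks them as picked later. Alternatives were a pseudocount of 0.1, no filter, FPKM as deposited, FPKM divided by the library's sum (TPM), no trend, each library left out, a replicate block, a batch by range of numbers, 1 fit over all 22 libraries and exact permutation tests.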

Additional observations from a re-analysis of the deposited data

Results flagged for a closer look

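In groups of 4 libraries a value was marked when its gap to the nearest other exceeds Dixon's 95% limit as a share of the group's range, which chance does in about 1 in 20 groups. This was so for 9 of 176 pairs of a member and a group. In KD blastocysts these were replicate 1 for Hspd1 (128.6 FPKM, others 182.7 to 191.6), replicate 6 for Hspa8 (1424, others 2476 to 2525) and replicate 5 for Hsp90b1 (203.8, others 130.7 to 142.3), Hsp90ab1 (1582, others 973.6 to 1076) and Dnaja2 (98.94, others 74.14 to 76.04). In control blastocysts it was replicate 1 for Dnajb6 (232.7, others 88.48 to 103.4). In control morulae they were replicate 8 for Dnajc10 (8.655, others 6.633 to 6.921) and replicate 1 for Hsp90ab1 (1293, others 974 to 1005), and in control 2-cell embryos replicate 4 for Hspb1 (96.21, others 55.5 to 57.98).

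The KD effect in blastocysts minus that in morulae passed the limma interaction test for 10 members. It was negative for Cct6b (-1.713), Hspb2 (-1.585), Dnajc24 (-0.769) and Dnajb4 (-0.7146). It was positive for Hsp90ab1 (0.8332), Dnajb11 (0.921), Dnaja3 (0.9955), Hspbp1 (1.133), Dnajb9 (1.193) and Dnajb2 (1.255). The causes of these differences were not tested. Hspb2 and Dnajb4 were so low in morulae that a fall there could hardly show.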

How the results depend on the processing

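No call turned its direction, and the cause of a moved count was not tested. Signs of values that did not pass did turn with the scaling: CCT subunits higher and lower went from 1 and 7 to 0 and 8 in KD morulae (as deposited and as TPM), from 6 and 2 to 8 and 0 in KD blastocysts (TPM) and from 4 and 4 to 1 and 7 from morula to blastocyst (TPM). The median of all genes went from 0.03 to -0.11 from 2-cell embryo to morula (TPM), and, as deposited and as TPM, from 0.02 to -0.09 and -0.13 in KD morulae and from -0.01 to 0.11 and 0.24 for the difference of the KD effect. Of the values of named genes under other settings, 4352 kept their side of the threshold or stayed within the spread, 165 were weaker, 62 stronger and 177 moved. Members lower in KD morulae numbered 5 (0 with no filter, 11 as TPM, 1 to 6 with a library left out), of which 1 was also past a log2 fold change of 1 (0 with no filter, 0 to 1 with a library left out). Members higher in KD morulae numbered 2 (1 with no filter, 4 with the replicate block, 1 to 2 with a library left out). Members higher in KD blastocysts numbered 10 (6 with no filter, 6 to 11 with a library left out), and those lower past a log2 fold change of 1 numbered 5 (8 with a pseudocount of 0.1, 3 to 6 with a library left out). For the difference of the KD effect, 6 were higher (3 with no filter, 11 as TPM, 3 with the replicate block, 3 to 7 with a library left out) and 4 lower (2 with a pseudocount of 0.1, 3 to 5 with a library left out). All other counts stayed within 1.5 times. The promoters of 5.80% of members hold the longer motif and 23.2% (23.19) the shorter. Same-numbered control and KD libraries did not all deviate together (correlations -0.113 to 0.351). These deviations are from means of 3 or 4 libraries, so they cannot decide whether the numbers pair libraries. The replicate block ended the calls of Dnajc4, Dnajc14 and Dnajc24 in KD morulae and, for the difference of the KD effect, those of Dnaja3, Dnajb4, Hsp90ab1, Dnajb11 and Dnajc24. In morulae, libraries of the same range of numbers (1 and 2, or higher) deviated together (correlations 0.0955 to 0.347) and those of different ranges did not (-0.277 to -0.0948). At the 2-cell stage KD replicates 1 and 4 gave the like (0.163 to 0.213 within a range, -0.237 to -0.167 between ranges), and KD replicate 2 did not (-0.0212 to 0.0122). With that range as a batch, genes higher and lower in KD morulae went from 464 and 995 to 777 and 1261, and members from 2 and 5 to 2 and 7. No replicate block was run for the steps between stages, since each stage holds other embryos, collected at another time. Without counts, how far depth limits the values of sparse members is unknown.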
